A study of Rattus norvegicus with 4 samples.

Results

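The muscle and neural microRNAs (miRNAs) described here are a set that other tissues are known for, read in cells of the liver. They were picked by name, with earlier results of these data known. Every rat probe whose spot name is miR-1, miR-1b, miR-133a to c, miR-206, miR-208, miR-499, miR-9, miR-124, miR-128, miR-129, miR-137, miR-138 or miR-219, any copy and either arm, was taken. This gave 37 of the 761 miRNA probes on the array, 16 of them for muscle and 21 for neural miRNAs. The samples were liver sinusoidal endothelial cells (LSECs), the fenestrated cells that line the liver's capillaries, and hepatocytes, its parenchymal cells. Both were isolated as primary cells, with no treatment, from male Sprague-Dawley rats aged 10 weeks, and each cell type had 2 samples. Each sample was labelled with Cy5 and hybridised to its own array. How the cells were purified, and whether animals were pooled or shared between samples, is not given in the sources used here. The p-values weigh differences by how far these samples of a cell type lie apart, with variance shared across miRNAs. That spread may be technical.

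A miRNA is a short RNA that pairs through its seed, bases 2 to 8, with messenger RNAs and lowers their output. Both arms of its hairpin, 5p and 3p, can yield a mature miRNA. In muscle, miR-1 and miR-133 are made from shared transcripts and promote or restrain muscle differentiation, miR-206 belongs to skeletal muscle, and miR-208a, miR-208b and miR-499 are encoded inside myosin heavy chain genes. In the nervous system, miR-124 marks neurons, miR-9 neural progenitors, miR-219 myelinating oligodendrocytes, and miR-128, miR-129, miR-137 and miR-138 are enriched in brain.

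Mature sequences were found in RefSeq (rat build GRCr8) for 34 of the 37 members, and none was found there for miR-124-3p, miR-124-5p and miR-206-5p. The muscle sequences below show why neighbouring probes may share signal, and the seed is in capitals.
miR-1-3p: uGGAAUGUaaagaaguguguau
miR-1b: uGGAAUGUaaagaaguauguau
miR-206-3p: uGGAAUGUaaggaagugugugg
miR-133a-3p: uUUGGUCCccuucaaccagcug
miR-133b-3p: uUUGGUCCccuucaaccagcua
miR-133c: cAGCUGGUugaaggggaccaa
miR-499-5p: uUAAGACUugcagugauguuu
Counted from the 5′ end, miR-133b-3p differs from miR-133a-3p by G22A alone, and miR-1b from miR-1-3p by G17A. All 21 bases of miR-133c are the reverse complement of miR-133a-3p, and the annotation places it on the plus strand at chr18:2157886-2157906, opposite miR-133a-3p on the minus strand at chr18:2157886-2157907, both within the span of Mib1. The hairpins of miR-208a, miR-208b and miR-499 lie within the spans of Myh6, Myh7 and Myh7b.

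Of the neural miRNAs, those of the miR-128, miR-129, miR-137 and miR-138 families that gave a call or passed both limits below, with close relatives, are shown.
miR-128-1-5p: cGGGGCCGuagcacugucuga
miR-128-2-5p: gGGGGCCGaugcacuguaaga
miR-128-3p: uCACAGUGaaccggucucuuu
miR-129-1-3p: aAGCCCUUaccccaaaaag
miR-129-2-3p: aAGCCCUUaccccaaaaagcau
miR-137-3p: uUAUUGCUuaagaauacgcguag
miR-138-1-3p: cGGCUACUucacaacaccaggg
miR-138-2-3p: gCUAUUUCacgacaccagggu
miR-138-5p: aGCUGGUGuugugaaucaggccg
The 19 annotated bases of miR-129-1-3p are the first 19 bases of miR-129-2-3p, so the probes of these 2 miRNAs cannot be taken as separate readings. The 3p arms of the miR-138 hairpins match at 18 of 20 aligned bases, with C7U and A13G between them, counted on miR-138-1-3p. The 5p arms of the 2 miR-128 hairpins share a seed, held by no other rat miRNA in that table, and miR-128-3p is the same sequence from both hairpins (Mir128-1 within R3hdm1 on chromosome 13, Mir128-2 within Arpp21 on chromosome 8).

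The arrays carried the cell type markers that their labels call for. Spot medians of the endothelial miR-126a-3p were 43655 and 44808 on the LSEC arrays, against 98.9 and 144.2 on the hepatocyte arrays. Those of the hepatocyte miR-122-5p were 179.5 and 149.7 on the LSEC arrays, against 21459 and 38063 on the hepatocyte arrays. A spot median is the linear brightness of a spot with the background still in it, and the mean of the blank spots was 70.9 and 71.8 on the LSEC arrays and 79.5 and 92.1 on the hepatocyte arrays. A probe counted as detected when it exceeded that mean by 2 SD of the blanks, at limits of 73.2 and 74.2 on the LSEC arrays and 83.0 and 97.4 on the hepatocyte arrays. This limit is a low one: of 513 spots that carry no probe, 160 and 182 exceeded it on the LSEC arrays and 139 and 122 on the hepatocyte arrays. A stricter limit, the 95th percentile of those empty spots, lay at 78.6 and 86.2 on the LSEC arrays and 87.9 and 105.6 on the hepatocyte arrays, and was chosen after seeing the data.

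Most muscle and neural miRNAs read close to the blanks in both cell types, while a few stood clear of them. Members had a median spot of 76.4 and 76.3 on the LSEC arrays, against 84.4 and 100.6 on the hepatocyte arrays, and over all 761 miRNA probes the median was 83.6 and 84.7 on the LSEC arrays and 86.2 and 104.1 on the hepatocyte arrays. On both LSEC arrays 23 of the 37 were detected, against 82.8% of all miRNA probes, and on both hepatocyte arrays 20 of the 37, against 66.2% of all. Detection on all 4 arrays was found for 18 members, against 63.3% of all probes, and 2 members, miR-206-5p and miR-9b-5p, were detected on no array. By the stricter limit 13 members passed on both LSEC arrays, against 47.8% of all probes, and 9 on both hepatocyte arrays, against 38.9%. On all 4 arrays 8 passed, against 34.4% of all probes, and 19 passed on none, against 34.6%. Passing on both LSEC arrays and no hepatocyte array was seen for 3 members, miR-133c, miR-128-3p and miR-129-1-3p, against 8.94% of all probes, and the reverse for miR-137-3p, against 1.71%. The 8 were miR-133b-3p and miR-208a-5p of the muscle set, and miR-128-1-5p, miR-128-2-5p, miR-138-1-3p, miR-138-2-3p, miR-138-5p and miR-219a-5p of the neural set. In such samples fewer cells of a type and less RNA per cell cannot be told apart.

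**Figure D1:**
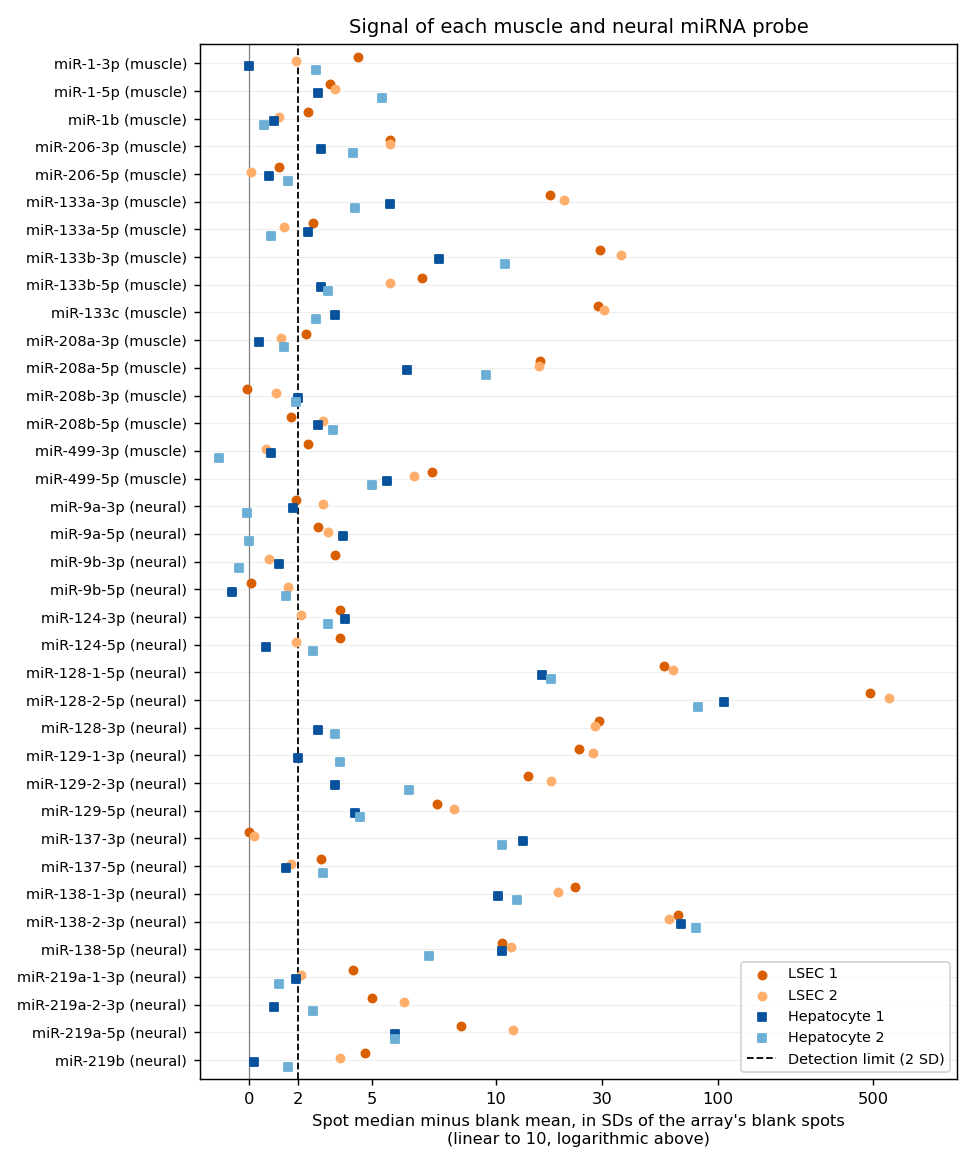
Signal of each of the 37 probes on each array, as the spot median less that array's blank mean, in SDs of those blanks, on an axis that is linear to 10 and logarithmic above (LSEC arrays orange circles, hepatocyte arrays blue squares). Most probes lie near the dashed limit of 2 SD, and 18 of the 37 lie to its right on all 4 arrays. The miR-128 5p arms and miR-138-2-3p lie farthest to the right on each array. An SD of the blanks is 1.15 and 1.24 units on the LSEC arrays and 1.71 and 2.63 on the hepatocyte arrays. Distances are therefore not comparable between cell types.

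**Figure D2:**
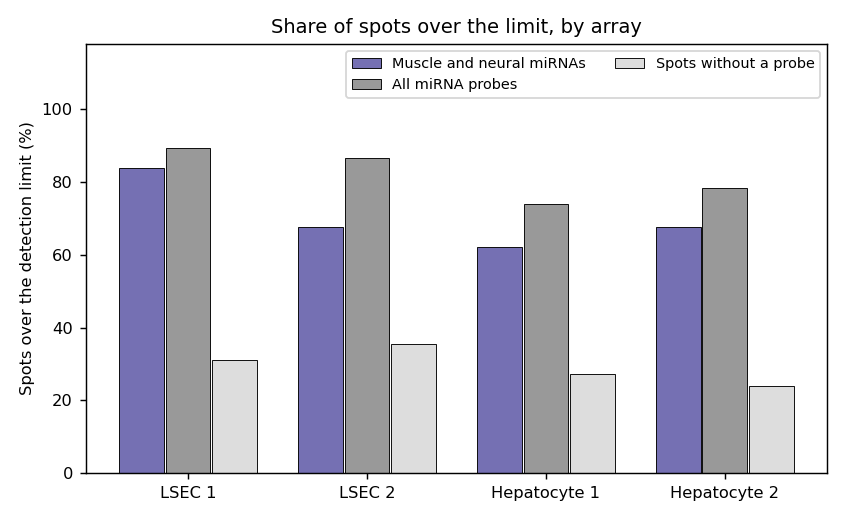
Percent of spots over the detection limit of 2 SD on each array, for the 37 muscle and neural miRNA probes, all 761 miRNA probes and the 513 spots without a probe. Members lie below all miRNA probes and above the empty spots on each array.

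LSEC minus hepatocyte differences were fitted on the log2 scale with limma after background correction and quantile normalization. A call required a p under 0.05 after Benjamini-Hochberg adjustment. Testing took in the 652 miRNAs that both LSEC arrays or both hepatocyte arrays detected, among them 25 members, 9 of the muscle and 16 of the neural set. The other 12 members reached at most 4.4 blank SDs on any array. Of the 25, 3 were higher in LSECs, against 18.6% of all miRNAs tested, and 3 were higher in hepatocytes, against 18.3%. When the local background column was subtracted before the normexp correction, none of the 6 calls held (0 and 0 members by limma). Of all 652 miRNAs, 10 were then called higher in LSECs and 8 in hepatocytes. The median difference was -0.05 over the 25 members and 0 over all miRNAs tested. An unadjusted p under 0.05 was found for 10 of the 25, against 48.5% of all tested. Normalized values of LSECs and hepatocytes were apart, with no overlap, for 17 of the 25, against 71.3% of all tested. The 19 members without a call differed by -0.33 to 0.09, and a lack of overlap was not limited to the called members. With 2 samples a side, an exact permutation test on any 1 miRNA gives a two-sided p of 0.333 at the lowest, and limma's calls draw on the variance it shares across miRNAs. Values carry an offset of 50 intensity units, which makes differences of dim miRNAs small, and the authors' scaled levels, which have none, are therefore given for the called members.

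**Figure D3:**
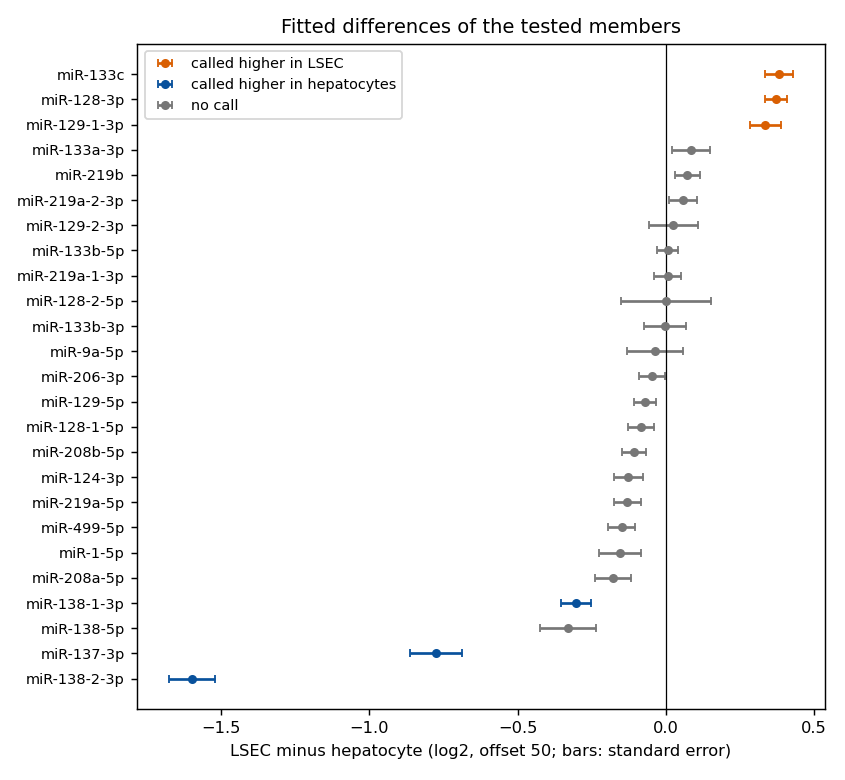
Fitted LSEC minus hepatocyte difference of the 25 tested members (log2, bars are standard errors, 2 arrays per cell type). The called members sit at the ends, at 0.34 to 0.38 for the 3 higher in LSECs and at -0.30 to -1.60 for the 3 higher in hepatocytes, and the uncalled miR-138-5p lies among the last 3 at -0.33; miR-138-1-3p turned to 0.31 with spike control scaling.

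The muscle miRNAs miR-1 and miR-206 were at or near background in both cell types. The probe for miR-1-3p, the most abundant miRNA of heart muscle, read 76.0 and 74.1 on the LSEC arrays and 79.5 and 99.1 on the hepatocyte arrays. It passed the detection limit on 1 array of each cell type and the stricter limit on none, and was not tested. Its 5p arm was detected on all arrays, at 74.8 and 76.1 on the LSEC arrays and 84.4 and 106.4 on the hepatocyte arrays, a difference of -0.15 ± 0.07 (adjusted p = 0.179). Calls in favour of hepatocytes came without hepatocyte array 1 (-0.28, adjusted p = 0.0288), with median scaling (-0.28, adjusted p = 0.0120), with the 75th percentile (-0.37, adjusted p = 0.00456) and in the authors' values (-1.41, adjusted p = 0.0109), and it passed the stricter limit on hepatocyte array 2 alone. The probe for miR-206-3p, the skeletal muscle miRNA with the same seed, read 77.5 and 78.8 on the LSEC arrays and 84.5 and 103.2 on the hepatocyte arrays, a difference of -0.05 ± 0.04 (adjusted p = 0.468), or -0.19 with median scaling (adjusted p = 0.0207) and -0.29 with the 75th percentile (adjusted p = 0.00494). It stayed below the stricter limit on all 4 arrays. The probe for miR-1b exceeded the detection limit on LSEC array 1 alone, at 73.7.

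In the miR-133 family, which restrains muscle differentiation, the antisense miR-133c was higher in LSECs, and no other member was called. Its spots read 104.4 and 110.0 on the LSEC arrays, above the stricter limit, and 85.5 and 99.3 on the hepatocyte arrays, below it. The authors' scaled levels were 52.0 and 53.9 in LSECs and 14.3 and 11.3 in hepatocytes, without overlap. The fitted difference was 0.38 ± 0.05 (adjusted p = 0.00643). It was 0.36 without LSEC array 1 (adjusted p = 0.0880) and 0.31 without LSEC array 2 (adjusted p = 0.0986), with no call. The miRNA on the opposite strand, miR-133a-3p, had scaled levels of 31.3 and 35.6 in LSECs and 23.5 and 17.8 in hepatocytes, which do not overlap, and a difference of 0.09 ± 0.06 (adjusted p = 0.363). In its normalized values the cell types overlapped, and the 75th percentile turned it to -0.13 with no call (adjusted p = 0.104). It was called higher in LSECs in the authors' values (0.71, adjusted p = 0.0293) and with the spike controls (0.47, adjusted p = 0.00142). For miR-133b-3p, which ends in another base, the scaled levels were 52.8 and 64.3 in LSECs and 31.7 and 45.3 in hepatocytes, and the difference was 0.00 ± 0.07 (adjusted p = 0.978), or 0.67 (adjusted p = 0.00116) when arrays were scaled by their spike controls. Spots of the 5p arm miR-133b-5p read 79.0 and 78.8 on the LSEC arrays and 84.4 and 100.5 on the hepatocyte arrays. This arm differed by 0.01 ± 0.04 (adjusted p = 0.920). It was called higher in hepatocytes with median scaling (-0.15, adjusted p = 0.0378) and the 75th percentile (-0.25, adjusted p = 0.00624). With the spike controls it was called higher in LSECs (0.15, adjusted p = 0.0284). The arm miR-133a-5p was detected on 1 array of each cell type.

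Of the miRNAs encoded in myosin genes, the 3p arms of miR-208a and miR-208b were dim. The probes for miR-208a-3p read 73.6 and 73.4 on the LSEC arrays and 80.2 and 95.9 on the hepatocyte arrays, and those for miR-208b-3p 70.8 and 73.1 on the LSEC arrays and 83.0 and 97.1 on the hepatocyte arrays. Each exceeded the detection limit on 1 array and the stricter limit on none. The other arm, miR-208a-5p, stood above both limits on all 4 arrays, at 89.3 and 91.1 on the LSEC arrays and 90.6 and 117.3 on the hepatocyte arrays. Its difference was -0.18 ± 0.06 (adjusted p = 0.0963), or -0.29 without hepatocyte array 1 (adjusted p = 0.0247), -0.19 with median scaling (adjusted p = 0.0368), -0.35 with the 75th percentile (adjusted p = 0.00515) and, turned, 0.28 with the spike controls (adjusted p = 0.00476). For miR-499-5p, which shares most of its seed with miR-208a-3p, the spots read 79.4 and 80.1 on the LSEC arrays. They read 89.1 and 105.2 on the hepatocyte arrays, a difference of -0.15 ± 0.05 (adjusted p = 0.0737). The stricter limit was passed on LSEC array 1 and hepatocyte array 1 alone. Calls came without hepatocyte array 2 (-0.21, adjusted p = 0.0335), with median scaling (-0.25, adjusted p = 0.00752), with the 75th percentile (-0.37, adjusted p = 0.00240) and in the authors' values (-0.80, adjusted p = 0.0109). The arm miR-208b-5p was detected on 3 arrays and differed by -0.11 ± 0.04 (adjusted p = 0.122), and miR-499-3p was detected on LSEC array 1 alone.

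The neuronal miR-124 and the progenitor miRNA miR-9 read near the blanks in both cell types. For miR-124-3p the spots were 75.2 and 74.4 on the LSEC arrays and 86.2 and 100.6 on the hepatocyte arrays, above the detection limit and below the stricter one on all 4. Its difference was -0.13 ± 0.05 (adjusted p = 0.123). It was called higher in hepatocytes with median scaling (-0.26, adjusted p = 0.00717), with the 75th percentile (-0.35, adjusted p = 0.00275) and in the authors' values (-1.56, adjusted p = 0.00639), where its scaled levels were 6.6 and 3.7 in LSECs and 15.9 and 13.3 in hepatocytes. The probe for miR-9a-5p read 74.1 and 75.8 on the LSEC arrays and 86.1 and 92.1 on the hepatocyte arrays, was detected on 3 of the 4, and differed by -0.04 ± 0.09 (adjusted p = 0.794). No miR-9 probe passed the stricter limit on any array. The miR-9b arms, annotated on the strand opposite miR-9a, were detected on 1 array at most.

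The miR-128 family, brain miRNAs that dampen neuronal excitability, held 2 members above both limits on all arrays and 1 call. For miR-128-2-5p the spots read 632.4 and 801.7 on the LSEC arrays and 261.8 and 307.1 on the hepatocyte arrays. Its scaled levels were 872.4 and 1029.6 in LSECs and 438.8 and 335.8 in hepatocytes, without overlap and 2.46-fold apart in their means. Yet its fitted difference was 0.00 ± 0.15 (adjusted p = 1), because quantile normalization gave it the same pair of values in both cell types. Under each other scaling but cyclic loess, at 0.07 (adjusted p = 0.718), it was called higher in LSECs, by 0.53 with the 75th percentile, 0.96 with the median, 1.45 without normalization, 2.24 with the spike controls and 1.30 in the authors' values. The arm miR-128-3p, the one studied in brain, was higher in LSECs, with scaled levels of 52.2 and 49.0 in LSECs and 11.4 and 14.2 in hepatocytes. Its difference was 0.37 ± 0.04 (adjusted p = 0.00331). It was 0.33 without LSEC array 1 (adjusted p = 0.0669) and 0.32 without LSEC array 2 (adjusted p = 0.0644). On the hepatocyte arrays its spots, 84.3 and 101.2, lay below the stricter limit. For miR-128-1-5p the scaled levels were 102.9 and 109.9 in LSECs and 66.3 and 72.8 in hepatocytes, and the difference was -0.08 ± 0.04 (adjusted p = 0.210), but 0.61 in the authors' values (adjusted p = 0.0237) and 0.94 with the spike controls (adjusted p = 0.000122).

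Among the miR-129 probes, miR-129-1-3p was higher in LSECs. Its spots read 98.4 and 105.6 on the LSEC arrays, above the stricter limit, and 82.9 and 102.0 on the hepatocyte arrays, where the first was below the detection limit. The authors' scaled levels were 42.7 and 47.7 in LSECs, and in hepatocytes none was listed for the first array and 15.4 for the second. The difference was 0.34 ± 0.05 (adjusted p = 0.0117). It was 0.32 without LSEC array 1 (adjusted p = 0.110) and 0.26 without LSEC array 2 (adjusted p = 0.151), and the call also ended with the 75th percentile (0.12, adjusted p = 0.126) and without normalization (0.42, adjusted p = 0.0613). The probe for miR-129-2-3p, whose sequence contains that of miR-129-1-3p, read 87.0 and 93.9 on the LSEC arrays and 85.6 and 109.2 on the hepatocyte arrays, and differed by 0.03 ± 0.08 (adjusted p = 0.844), or 0.39 with the spike controls (adjusted p = 0.00505). The 5p arm, miR-129-5p, differed by -0.07 ± 0.04 (adjusted p = 0.233), with scaled levels of 13.5 and 14.4 in LSECs and 17.9 and 18.7 in hepatocytes. It was called with median scaling (-0.19, adjusted p = 0.0165) and the 75th percentile (-0.30, adjusted p = 0.00351). With the spike controls it was called the other way (0.15, adjusted p = 0.0315).

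Hepatocytes had more of miR-137-3p, a miRNA of neurogenesis, which was at the blanks in LSECs. Its spots read 70.9 and 72.0 on the LSEC arrays, next to blank means of 70.9 and 71.8, and 102.2 and 120.2 on the hepatocyte arrays. It was the 1 member detected on both hepatocyte arrays and neither LSEC array, a pattern found for 0.657% of all probes. Since it was not well above background in LSECs, its fold is a bound. The authors listed no scaled level for it in LSECs, and 54.4 and 43.9 in hepatocytes. Under quantile normalization with the offset it was at least 1.64-fold higher in hepatocytes, setting the bright cell type's mean against the higher of the dim cell type's own signal and the lowest detected signal of each array. The fitted difference was -0.78 ± 0.09 (adjusted p = 0.00485), from normalized means of 5.79 in LSECs and 6.57 in hepatocytes. It was -0.70 without LSEC array 1 (adjusted p = 0.0834) and without LSEC array 2 (adjusted p = 0.0839), and smaller without normalization (-0.60, adjusted p = 0.00813), with cyclic loess (-0.61, adjusted p = 0.000542) and with the spike controls (-0.40, adjusted p = 0.00178). The fitted difference of miR-137-3p was smallest, at -0.15, with the background column subtracted (adjusted p = 0.783). Its 5p arm, read at 74.2 and 73.9 on the LSEC arrays and 82.1 and 100.1 on the hepatocyte arrays, was detected on 1 array of each cell type.

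The 3p arms of miR-138, a miRNA of dendrites and synapses, were higher in hepatocytes, the miR-138-1 arm not under every scaling, since it turned with the spike controls. The spots of miR-138-2-3p read 147.0 and 146.7 on the LSEC arrays and 196.9 and 302.8 on the hepatocyte arrays. Its scaled levels were 118.2 and 105.8 in LSECs and 282.5 and 329.1 in hepatocytes. It differed by -1.60 ± 0.08 (adjusted p = 0.000389), kept that call without any 1 array, and lay, with no call, at -0.08 with the spike controls (adjusted p = 0.167). The hairpin lies on the minus strand of chromosome 19, within the span of Slc12a3, with this arm at chr19:10680139-10680159. For miR-138-1-3p the scaled levels were 40.9 and 33.3 in LSECs and 42.2 and 51.4 in hepatocytes. Its difference was -0.30 ± 0.05 (adjusted p = 0.0164). The call ended when LSEC array 1 was left out (-0.30, adjusted p = 0.117), as it did for LSEC array 2 (-0.25, adjusted p = 0.165) and for hepatocyte array 2 (-0.27, adjusted p = 0.0520). It also ended without normalization (-0.05, adjusted p = 0.910) and in the authors' values (-0.34, adjusted p = 0.199), and spike control scaling turned it to a call of 0.31 in favour of LSECs (adjusted p = 0.00232). The arm common to both hairpins, miR-138-5p, read 83.3 and 86.2 on the LSEC arrays and 97.8 and 111.3 on the hepatocyte arrays and differed by -0.33 ± 0.09 with no call (adjusted p = 0.0650). It was called under median, 75th percentile and cyclic loess scaling and in the authors' values, and also without hepatocyte array 1 (-0.24, adjusted p = 0.0423) and without hepatocyte array 2 (-0.49, adjusted p = 0.0161).

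The oligodendrocyte miRNA miR-219 was not called in any of its 4 probes after quantile normalization. For miR-219a-5p the spots read 80.8 and 86.6 on the LSEC arrays and 89.7 and 107.7 on the hepatocyte arrays, above the stricter limit on all, and the difference was -0.13 ± 0.04 (adjusted p = 0.0969). It was called with median scaling (-0.21, adjusted p = 0.0176) and the 75th percentile (-0.34, adjusted p = 0.00371), and the other way with the spike controls (0.18, adjusted p = 0.0483). The 3p arms miR-219a-1-3p and miR-219a-2-3p differed by 0.01 ± 0.05 (adjusted p = 0.945) and 0.06 ± 0.05 (adjusted p = 0.417). The antisense miR-219b differed by 0.07 ± 0.04 (adjusted p = 0.263). The LSEC arrays alone detected miR-219a-1-3p and miR-219b, a pattern of 6.18% of all probes, and both lay below the stricter limit.

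**Figure D4:**
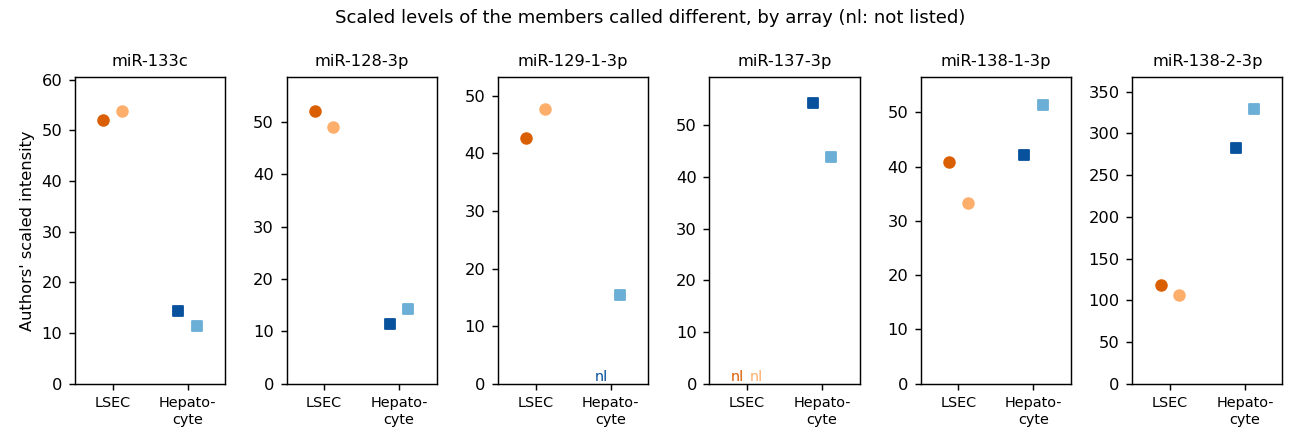
The authors' scaled intensity of the 6 called members on each array (linear axes from 0, LSEC arrays left in orange, hepatocyte arrays right in blue, "nl" where the authors list no value). Levels of miR-133c, miR-128-3p and miR-129-1-3p are higher in LSECs, miR-137-3p is listed in hepatocytes alone, and the hepatocyte excess of miR-138-1-3p is smaller than that of miR-138-2-3p.

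Several of these values depended on the scaling between arrays. Against 0 with quantile normalization, the median over all tested miRNAs was -0.21 under 75th percentile scaling, 0.27 with the spike controls and 0.28 in the authors' values. The direction of miR-133c, miR-128-3p, miR-137-3p and miR-138-2-3p was the same under every scaling that gave a value, as was that of miR-129-1-3p, and miR-138-1-3p turned under 1 scaling. With the spike controls 15 members were called higher in LSECs and 1 in hepatocytes, beside 433 and 21 of all 652 miRNAs. With the 75th percentile 3 members were called higher in LSECs and 15 in hepatocytes, beside 117 and 368 of all. Under these scalings the side that gained calls was the same for the members and the whole array. In the authors' values it was not: 5 members were called in each direction, beside 196 and 111 of all. The median difference there was -0.27 over the members tested and 0.28 over all.

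**Figure D5:**
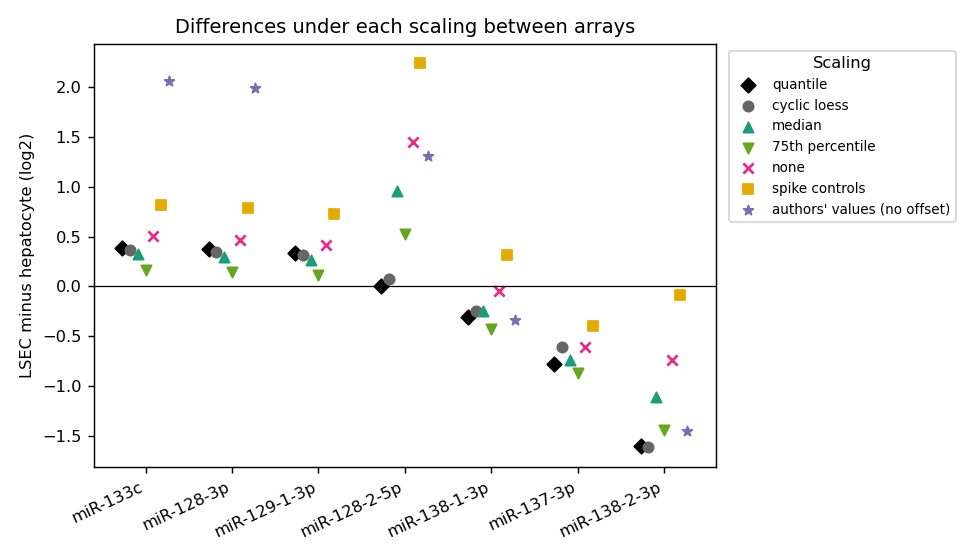
LSEC minus hepatocyte difference (log2) of the called members and of miR-128-2-5p under 7 scalings between arrays, where the authors' values carry no offset. The 3 members higher in LSECs stay above 0, miR-128-2-5p ranges from 0 to 2.24, and miR-138-1-3p crosses 0.

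Markers of several other cell types differed between the samples. The summed scaled level of 4 perivascular smooth muscle probes, both arms of miR-143 and miR-145, was 1085 and 672 on the LSEC arrays and 216.0 and 262.3 on the hepatocyte arrays, with miR-145-3p undetected on LSEC array 2 and hepatocyte array 1. Of these, miR-143-5p went the other way, at 123.3 and 123.0 in LSECs and 175.2 and 191.3 in hepatocytes (-0.88, adjusted p = 0.000371), and made up most of the hepatocyte sums. For 4 stellate and mesenchymal probes the sums were 1555 and 1417 in LSECs, with 1 probe undetected on each array, and 65.3 and 79.5 in hepatocytes, with 2 and 1 undetected, and for 4 leukocyte probes 2339 and 2918 in LSECs and 106.7 and 81.8 in hepatocytes. The 6 hepatocyte probes summed to 305.8 and 255.8 in LSECs, with 1 undetected on each array, and 64005 and 74601 in hepatocytes. The 4 erythroid probes summed to 123.7 and 120.8 in LSECs, with 1 and 2 undetected. In hepatocytes they summed to 153.6 and 126.1, with 2 and 1 undetected. Of these probes, miR-486 gave 82.7 and 95.9 in LSECs and was not called (-0.01, adjusted p = 0.929). The probe for miR-451-5p was higher in hepatocytes (-0.79, adjusted p = 0.0242). The part of these other cell types in the differences above was not tested.

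Other muscle and neural miRNAs, outside the set, were set beside it, in lists chosen with earlier results of these data known. Of 9 tested miRNAs of a list for muscle, which includes miR-143, miR-145, miR-22 and miR-378, 2 were higher in LSECs and 6 in hepatocytes. This made 88.9% in all, against 36.8% of all miRNAs tested, with a median difference of -0.99. Given how the list was chosen, this share is a description and no test. Of this list, miR-143 and miR-145 belong to smooth muscle. Both arms of miR-22 and of miR-378a were among the 6, so arms of the same hairpin count more than once. The 2 were miR-143-3p at 1.80 ± 0.18 and miR-145-5p at 1.25 ± 0.18, and miR-22-3p led the 6 at -2.23 ± 0.04, followed by miR-22-5p at -1.81 ± 0.18. Calls ended without hepatocyte array 1 (adjusted p = 0.0569 and 0.0920) or 2 (0.0566 and 0.0789) for miR-143-3p and miR-145-5p, and without LSEC array 1 (0.0738) or 2 (0.0716) for miR-22-5p, and miR-22-3p was not called with the spike controls (-0.03, adjusted p = 0.656). Of 44 tested miRNAs of a list for nervous tissue, 5 were higher in LSECs and 8 in hepatocytes, 29.5% in all against 36.8% of all miRNAs tested, with a median difference of -0.01. They were led by miR-338-3p at 1.26 ± 0.16 and miR-328a-5p at 0.89 ± 0.12 in LSECs, and by miR-874-5p at -1.51 ± 0.08 and miR-874-3p at -1.24 ± 0.05 in hepatocytes. The call of miR-338-3p ended without hepatocyte array 1 (adjusted p = 0.0687) or 2 (0.0750), and that of miR-328a-5p when LSEC array 1 (0.0756), LSEC array 2 (0.105) or hepatocyte array 2 (0.0536) was left out. Both arms of miR-874 were called the other way with the spike controls, at 0.52 and 0.34.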

How the data were processed

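Total RNA of 2 LSEC and 2 hepatocyte samples was labelled with Cy5 and hybridised to Toray 3D-Gene arrays, per the labels' protocols. The deposited scanner tables hold spot intensity from scans at 3 gains merged by a linear fit, per the file headers, with background included. The authors' deposited series table holds scaled intensity, whose making is not given in the sources used here. Spot medians of all 3200 spots were corrected by normexp (offset 50), and the 761 miRNA probes were quantile-normalized (R 4.3.3, limma 3.58.1). Detection used blank spots trimmed by 5% at either end. Differences were fitted with lmFit and eBayes, with Benjamini-Hochberg adjustment over the 652 miRNAs tested. The fit was tested on simulated data. No member spot carried a scanner quality mark (0 spots). The number of arrays limits precision. Alternatives changed background, offset, scaling, filter, limma options, replicate block and each array in turn. Named with values on every array were members called, with an unadjusted p under 0.05, or detected on all 4 arrays; further dim members are named as descriptions, and of the other lists the leading called miRNAs. The members and lists were chosen with earlier results of these data known. Same-numbered samples of the cell types had deviations that correlated with r = 0.0318 across the 652 miRNAs, and the labels name no shared animal or batch.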

Additional observations from a re-analysis of the deposited data

How the results depend on the processing

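The counts of called members, 3 higher in LSECs and 3 in hepatocytes, were the same or within 1.5 times with the blank mean subtracted, an offset of 16, cyclic loess, no normalization, other filters and other limma options. With the background column subtracted they were 0 and 0 (all miRNAs 10 and 8), with median scaling 4 and 13 (153 and 222), with the 75th percentile 3 and 15 (117 and 368), with spike control scaling 15 and 1 (433 and 21), and in the authors' values 5 and 5 (196 and 111). Leaving out 1 array gave 0 to 3 higher in LSECs and 1 to 6 in hepatocytes: 0 and 1 without LSEC array 1 (all miRNAs 61 and 55) or LSEC array 2 (63 and 57), 3 and 6 without hepatocyte array 1 (97 and 134), and 3 and 4 without hepatocyte array 2 (91 and 125). The replicate block left 3 and 3, and the count over all miRNAs was 101 higher in LSECs and 99 in hepatocytes, against 121 and 119 without it. A crossed block, added after seeing the data, left 3 and 4 members. The samples share only a number. Members over the limit on both arrays numbered 23 in LSECs and 20 in hepatocytes; by the 95th percentile of spots without a probe, chosen after seeing the data, they numbered 13 and 9, and by 5 SD 18 and 9. At a common limit on the authors' scaled values, 8.4 on every array and likewise chosen later, they were 18 and 20. Of all miRNA probes, 504 passed it in each cell type, 66.2%. The lowest levels listed were 3.6 and 3.5 on the LSEC arrays and 8.4 and 8.2 on the hepatocyte arrays. This limit therefore bears mostly on the LSEC counts, and no order of the cell types is drawn from it. Spike control scaling turned miR-1-5p to 0.002, miR-206-3p to 0.11, miR-133b-3p to 0.67, miR-208a-5p to 0.28, miR-499-5p to 0.092, miR-128-1-5p to 0.94, miR-129-5p to 0.15, miR-138-1-3p to 0.31, miR-138-5p to 0.11, miR-219a-5p to 0.18, miR-874-5p to 0.52 and miR-874-3p to 0.34. Subtracting the background column turned miR-206-3p to 0.001, miR-133b-3p to 0.082, miR-133b-5p to -0.076, miR-208a-5p to 0.043, miR-129-2-3p to -0.007, miR-138-5p to 0.021 and miR-22-3p to 0.061. In that setting the called members kept their direction without a call. They lay at 0.076 for miR-133c, 0.038 for miR-128-3p, 0.15 for miR-129-1-3p, -0.15 for miR-137-3p, -0.36 for miR-138-1-3p and -0.48 for miR-138-2-3p. Near-zero differences also changed sign: miR-133a-3p at -0.13 with the 75th percentile; miR-133b-3p at 0.065 with the median, 0.27 without normalization, 0.62 in the authors' values and -0.083 to 0.067 without any 1 array; miR-133b-5p at -0.15 with the median, -0.25 with the 75th percentile, -0.002 with cyclic loess, -0.044 without normalization and -0.15 in the authors' values; miR-128-1-5p at 0.15 with the median, 0.43 without normalization and 0.61 in the authors' values; miR-129-2-3p at -0.04 with the median, -0.18 with the 75th percentile and -0.085 to 0.14 without any 1 array. The cause was not tested.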

Other observations

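Base composition differed between members that were detected throughout and those that were not. The 17 members with a sequence among the 18 detected on all 4 arrays had a median GC content of 52.4% (33.3 to 66.7%), and the 17 with a sequence among the 19 others had 36.4% (27.3 to 63.6%). This is a description over members of shared arrays and families, with no test.

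Members that lie opposite each other on the genome are complementary. The run is 21 bases for miR-133c and miR-133a-3p, whose difference from each other was not tested. The other longest complementary runs were 19 bases between miR-9a-3p and miR-9b-5p, 18 between miR-9a-5p and miR-9b-3p, and 20 between miR-219a-2-3p and miR-219b, and no probe of the miR-9 and miR-219 pairs passed the limit set by the spots without a probe on any array. Whether a probe for one strand also reads RNA of the other was not tested.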
